A study of Mus musculus with 6 samples.

Results

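The protein parts of the mitochondrial ribosome and of the machinery that imports proteins into mitochondria were compared between bone marrow of ASXL1-MT mice and of mock mice. Members were all probe sets with exactly 1 gene symbol in the platform annotation where that symbol began with Mrpl or Mrps followed directly by a digit, or with Timm or Tomm. The choice used names alone and no measured value, but it was made with earlier results of these data known. It gave 206 of 45037 probe sets, which stand for 100 of 18193 genes. A further 7 probe sets carry a member's name beside other symbols and were left out.

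Expression was measured in 6 samples on Affymetrix mouse arrays, 3 from mice labelled as transplanted with ASXL1-MT and 3 from mice labelled as mock-transplanted, the normal control. The ASXL1-MT mice developed a myelodysplastic-like syndrome, per the labels. All samples are labelled as myeloid bone marrow cells, and the series text gives magnetic removal of CD3e-, B220- and TER-119-positive cells (T cells, B cells and red cell precursors) for both groups. The source label states that removal for mock alone. The form of ASXL1, the vector that carried it, the strain, the age and the time after transplantation are not given in the sources used here, nor is what the mock mice received. The series text names the 430A array, while the content it states, and the table's 45037 probe sets, match a larger array of that family. No label ties the 3 samples of a group to separate mice or to pools, so a p-value below reflects sample-to-sample spread that may be purely technical. The deposited values do not check the ASXL1 genotype, since no source used here says which part of the gene was introduced.

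Mitochondria make a small set of respiratory chain subunits on ribosomes of their own, built from a large subunit (Mrpl proteins) and a small subunit (Mrps proteins) around RNA from the mitochondrial genome. All Mrpl and Mrps proteins are nuclear gene products that must be imported. Precursors enter through the translocase of the outer membrane (Tomm proteins). Those with a presequence then pass the inner membrane through the presequence translocase around Timm23, while metabolite carriers are handed by the small Tim chaperones to the carrier translocase around Timm22. In blood formation, stem cells and mature neutrophils are known to rely little on mitochondrial respiration, and red cell precursors need mitochondria to make heme.

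Each value below is the log2 signal of a probe set on an array after centring on that probe set's median over the 6 arrays. A difference is the mean of the ASXL1-MT arrays less that of the mock arrays, and its fold assumes base 2. Centring leaves the 2 middle arrays of a probe set equal in size and opposite in sign, and it removes the level of the gene. A probe set is termed bright where the deposited numbers of its 3 highest arrays carry the rounding of a signal of at least 256. Part of the dimmer signals can share that rounding, so a bright probe set may still lie below 256. The rule held for 154 of the 206 members (74.8%), against 38.2% of all probe sets. With 3 arrays per group, a probe set can be bright through the arrays of a single group. A call among bright probe sets alone is therefore not independent of the group difference and adds no separate support. A probe set was called higher or lower where its adjusted p in limma's test over all 45037 probe sets was under 0.05.

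Genes of the mitochondrial ribosome sat somewhat higher in ASXL1-MT marrow, by small amounts. Among the import genes, those of the outer membrane and carrier translocases sat close to the rest of the array, while the 11 probe sets of the presequence translocase had a median of 0.29, near those of the ribosomal subunits (0.26 and 0.32). Of the 206 member probe sets, 10 were called higher and 2 lower, which is 5.83% against 8.1% of all probe sets (4.73% higher and 3.37% lower). All 12 were ribosomal, and the share is not above that background. A positive difference was found in 163 members (79.1%), against 55.9% of all probe sets. The median difference was 0.24, against 0.11 over the array, so the array's own median was positive too. Measured from the array's own median, 110 of the 156 ribosomal probe sets (70.5%) and 25 of the 50 translocase probe sets (50.0%) lay above it. For the presequence translocase it was 6 of 11 (54.5%), also under cyclic loess. By this share it sat nearer the translocases together than the ribosome, although its median was near those of the ribosomal subunits. Under cyclic loess, which brought the array's median to 0.00, the median stayed positive for the large (0.17) and small subunit (0.21) and was -0.01 for the translocases together, among them 0.17 for the presequence translocase.

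The differences were small. The median absolute difference was 0.30 for members and 0.53 for all probe sets, and 16 members (7.77%) differed by 1 or more on the log2 scale, against 25.3% of all. The median SD within groups was 0.17 for members and 0.44 for all probe sets, a gap that narrows among bright probe sets to 0.14 for members and 0.18 for all. In 85 members every ASXL1-MT array lay above every mock array and in 13 every one lay below, which is 47.6% against 35.4% of all probe sets (21.7% above and 13.7% below). Members are more often bright, and among bright probe sets the order turns, with 76 of 154 members not overlapping (49.4%) against 55.4% of all. At an unadjusted p under 0.05 there were 48 higher and 6 lower members, 26.2% against 26.3% of all (16.1% higher and 10.2% lower). When the 17205 bright probe sets were fitted alone, 40 of the 154 bright members were called higher and 4 lower, 28.6% against 39.4% of all bright probe sets (23.6% higher and 15.8% lower).

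**Figure D1:**
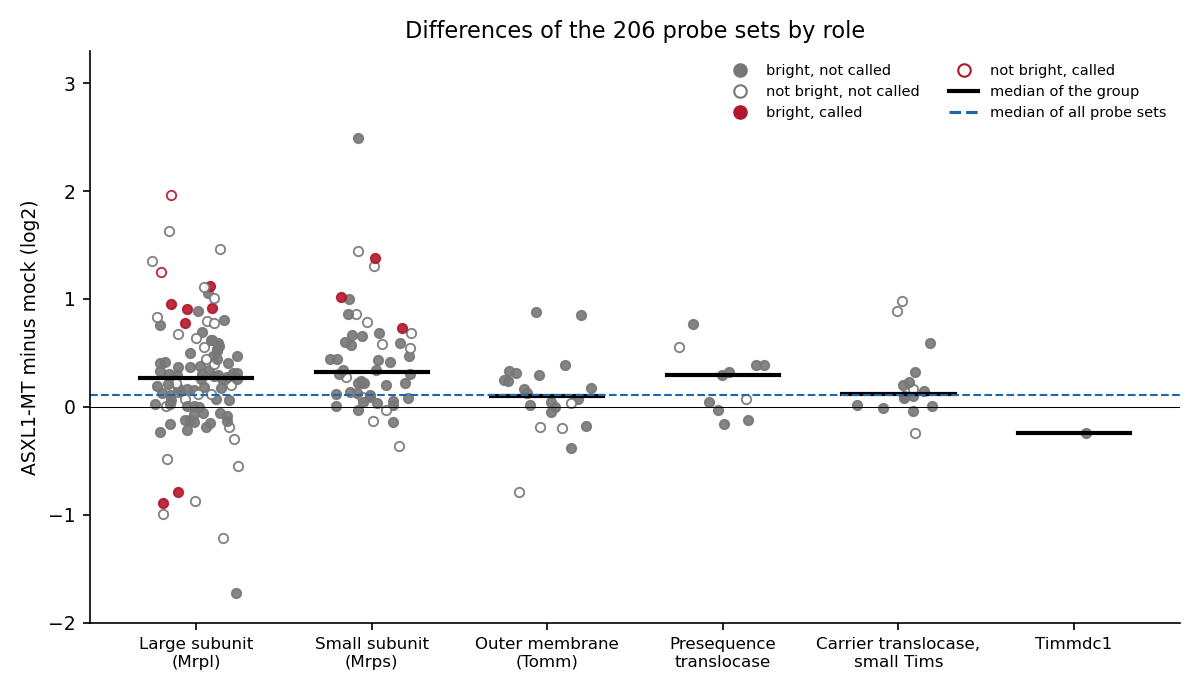
Difference between groups (ASXL1-MT minus mock, log2) of each of the 206 member probe sets, by role. Filled points are bright probe sets, red points were called, black bars are the median of a role and the dashed line is the median of all 45037 probe sets, 0.11. Both ribosomal subunits have medians above the dashed line (0.26 and 0.32), and those of the outer membrane and carrier translocases lie on it (0.10 and 0.12). The median of the presequence translocase lies above it (0.29), with 6 of its 11 probe sets above the line. All 12 called probe sets are ribosomal. Under cyclic loess scaling the medians of the 3 translocase groups are -0.02, 0.00 and 0.17.

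The members' medians separated the groups array by array, as did those of all probe sets. The median over the 206 members was 0.05, 0.10 and 0.15 on ASXL1-MT replicates 1 to 3 and -0.17, -0.15 and -0.02 on mock replicates 1 to 3. Over all 45037 probe sets the medians were 0.02, 0.05 and 0.05 on the ASXL1-MT arrays and -0.05, -0.03 and -0.05 on the mock arrays. Less each array's own median, the members stood at 0.02, 0.05 and 0.10 on the ASXL1-MT arrays and at -0.12, -0.12 and 0.03 on the mock arrays. On that scale the groups overlap, since mock replicate 3 lies above ASXL1-MT replicate 1. Mock replicate 3 was the highest of the mock arrays in 127 of the 206 members (61.7%), against 31.9% of all probe sets. ASXL1-MT replicate 1 was the lowest of its group in 99 members (48.1%), against 39.4%. Without mock replicate 3 the members' median was 0.30 and that of all probe sets 0.09. With any other array left out it lay between 0.22 and 0.27. What sets mock replicate 3 apart in these genes was not tested.

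**Figure D2:**
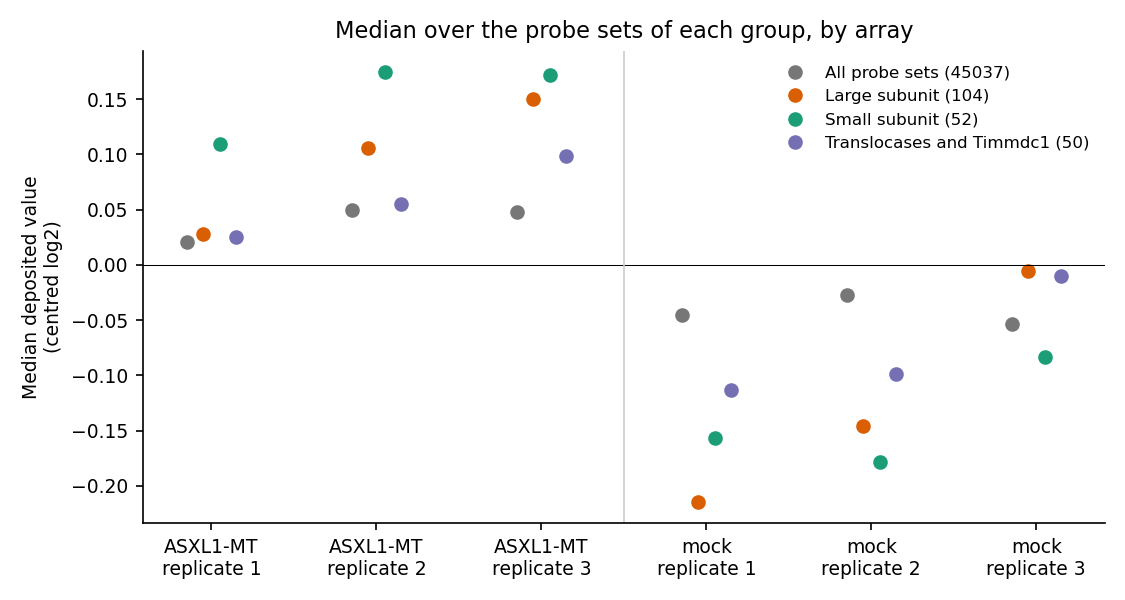
Median deposited value (centred log2) over the probe sets of each group of genes on each of the 6 arrays. Large and small ribosomal subunits lie above the translocases on ASXL1-MT replicates 2 and 3 and below them on mock replicates 1 and 2, while on mock replicate 3 the large subunit (-0.01) and the translocases (-0.01) lie near 0.

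The large subunit held 104 probe sets of 47 genes, with 7 called higher and 2 lower (8.65%, against 8.1% of all probe sets). A positive difference was found in 80 (76.9%, against 55.9% of all), and the median was 0.26. Above the array's own median lay 71 (68.3%). Higher were Mrpl28, Mrpl37, Mrpl50, Mrpl52, Mrpl47 and Mrpl3, and lower was Mrpl48. Mrpl28, Mrpl47 and Mrpl3 have counterparts in the bacterial ribosome, and Mrpl37, Mrpl50, Mrpl52 and Mrpl48 are additions found in mitochondria.

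Mrpl28 rose in 2 of its 3 probe sets. Its probe set 1416284_at read 0.47, 0.47 and 0.65 on the ASXL1-MT arrays and -0.81, -0.51 and -0.47 on the mock arrays. The difference was 1.12 ± 0.17 (SE), a 2.18-fold increase (adjusted p = 0.0272). A second probe set of the gene, 1437622_x_at, differed by 0.91 ± 0.14 (adjusted p = 0.0291), and the third, 1456313_x_at, by 0.81 with an adjusted p of 0.0691. The groups did not overlap in any of the 3. Mrpl37 is read by a single probe set, 1423764_s_at, with 0.47, 0.41 and 0.45 on the ASXL1-MT arrays and -0.45, -0.41 and -0.51 on the mock arrays. Its 6 values form 2 tight groups, and the difference of 0.90 ± 0.13 had the smallest adjusted p of all members, 0.0261.

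The promoters of Mrpl28, Mrpl37 and Mrpl52 are shown as those of 3 large subunit genes that rose on a bright probe set. Each sequence is the 250 bases before the RefSeq transcription start on GRCm38.p6, read along the gene, with searched motifs in capitals. Mrpl28 lies on the plus strand at chr17:26123253-26123502 and holds none of the 4 motifs searched. Mrpl37 lies on the minus strand at chr4:107066867-107067116 and holds an E-box, CACGTG, that begins 162 bases before the start. A match to the YY1 motif stands in the 300 bases counted below for Mrpl37, but not wholly within the printed 250. Mrpl52 lies on the plus strand at chr14:54426659-54426908, and its CTTCCGG, the other strand of the ETS-family letters CCGGAAG, begins 47 bases before the start.
Mrpl28: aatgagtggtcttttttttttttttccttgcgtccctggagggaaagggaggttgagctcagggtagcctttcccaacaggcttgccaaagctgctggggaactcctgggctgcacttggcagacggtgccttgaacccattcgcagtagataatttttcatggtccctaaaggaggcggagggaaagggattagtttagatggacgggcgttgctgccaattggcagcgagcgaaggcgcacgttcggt
Mrpl37: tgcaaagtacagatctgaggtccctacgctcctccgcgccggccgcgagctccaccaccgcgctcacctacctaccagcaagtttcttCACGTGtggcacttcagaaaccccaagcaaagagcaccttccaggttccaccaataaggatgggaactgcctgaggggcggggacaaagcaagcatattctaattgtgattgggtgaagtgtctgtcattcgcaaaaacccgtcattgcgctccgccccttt
Mrpl52: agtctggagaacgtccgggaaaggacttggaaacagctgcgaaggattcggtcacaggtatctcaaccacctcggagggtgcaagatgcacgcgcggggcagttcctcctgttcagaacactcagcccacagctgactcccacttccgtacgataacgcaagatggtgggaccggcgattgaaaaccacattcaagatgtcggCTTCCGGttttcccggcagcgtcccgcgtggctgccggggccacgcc

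Mrpl50 was read by 2 probe sets that differed in size. On 1451266_at the ASXL1-MT arrays read 0.50, 0.59 and 0.37 and the mock arrays -0.56, -0.46 and -0.37, a 1.93-fold increase (adjusted p = 0.0293). The other, 1424164_at, differed by 0.29 and was not called (adjusted p = 0.275). Mrpl52 had 4 probe sets, all positive, of which 1415762_x_at was called, with 0.42, 0.40 and 0.27 against -0.52, -0.46 and -0.27 and a difference of 0.78 ± 0.15 (adjusted p = 0.0434). The other 3 differed by 0.62, 0.62 and 1.11, and none of the 4 overlapped between groups.

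The largest difference among the called members was that of Mrpl47, and it came from a dim probe set. On 1443915_at the ASXL1-MT arrays read 0.58, 1.03 and 0.79 and the mock arrays -0.58, -1.20 and -1.71, a 3.9-fold difference (1.96 ± 0.33, adjusted p = 0.0333). The gene's 2 bright probe sets differed by 0.30 and 0.40, and neither was called. Mrpl3 showed the same pattern. Its dim probe set 1440636_at was called at 1.25 ± 0.23 (2.38-fold, adjusted p = 0.0388), its bright probe sets 1422463_a_at and 1422464_at differed by 0.50 and 0.56 (adjusted p = 0.179 and 0.163), and the fourth, 1431006_at, by -0.19.

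**Figure D3:**
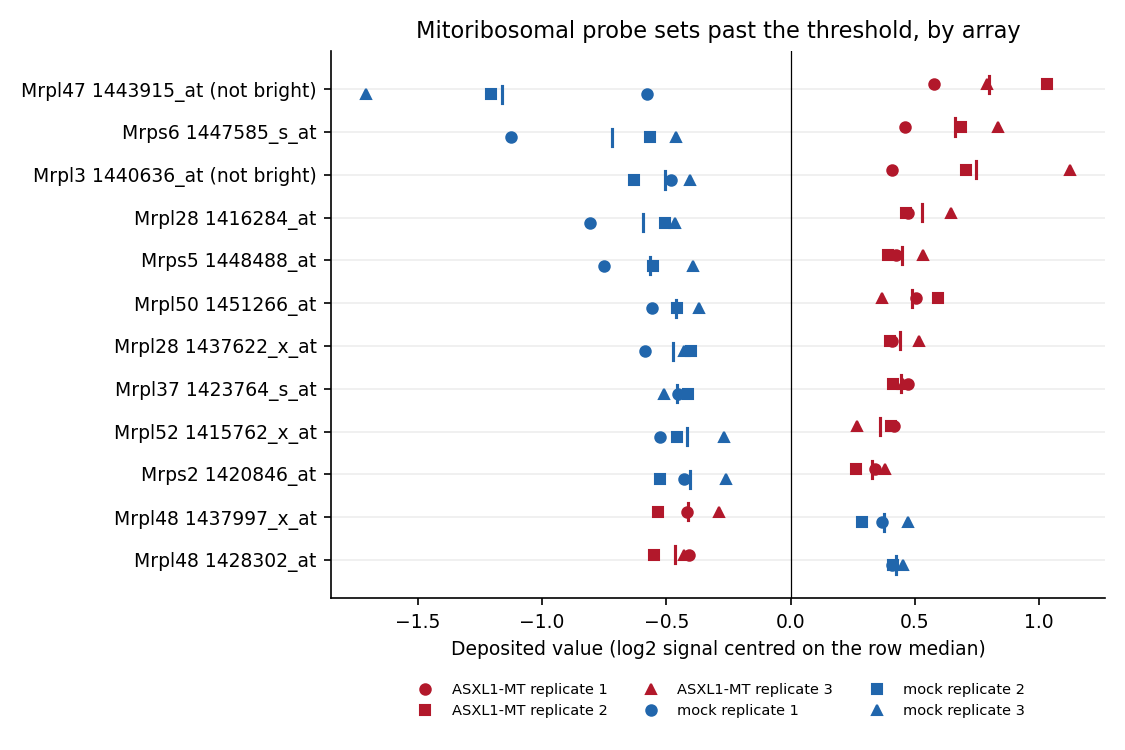
Deposited value (centred log2) on each of the 6 arrays for the 12 called probe sets, with colour for the group, shape for the replicate and a vertical bar for the group mean. The groups are apart in every line, the 2 Mrpl48 probe sets run opposite to the other 10, and the widest gap and widest spread are those of the dim Mrpl47 probe set (1.96).

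Mrpl48 was the exception in direction. Its probe set 1428302_at read -0.41, -0.55 and -0.43 on the ASXL1-MT arrays and 0.41, 0.41 and 0.45 on the mock arrays. The difference of -0.89 ± 0.14 is a 1.85-fold lower signal in ASXL1-MT (adjusted p = 0.0281). On 1437997_x_at the values were -0.42, -0.53 and -0.29 against 0.37, 0.29 and 0.47, a difference of -0.79 ± 0.15 (adjusted p = 0.0416). The third and dim probe set, 1442016_at, differed by -0.87 with an adjusted p of 0.247, and the groups did not overlap in any of the 3. Mrpl28 and Mrpl48 were the only member genes with 2 called probe sets.

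Other members below 0 were weak or rested on a single probe set, and those named here were chosen after their values were seen. Mrpl1, of the stalk beside the exit site, had bright probe sets at 0.76 and 0.27 and a dim one, 1460508_at, at -1.22 ± 0.28 (adjusted p = 0.0616). Mrpl15 had 8 probe sets, of which 6 were positive. Its 1430798_x_at read -0.21, -1.33 and -1.91 on the ASXL1-MT arrays against 1.20, 0.31 and 0.21, a difference of -1.72 ± 0.53 that was not called (adjusted p = 0.115), while 1425189_a_at of the same gene differed by 0.54. Among bright probe sets alone both were called by limma, the first lower (adjusted p = 0.0387) and the second higher (adjusted p = 0.0341). The brightness of the first was read from its mock arrays alone. These probe sets carry the same symbol and disagree, so no direction is given for Mrpl1 or Mrpl15.

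**Figure D4:**
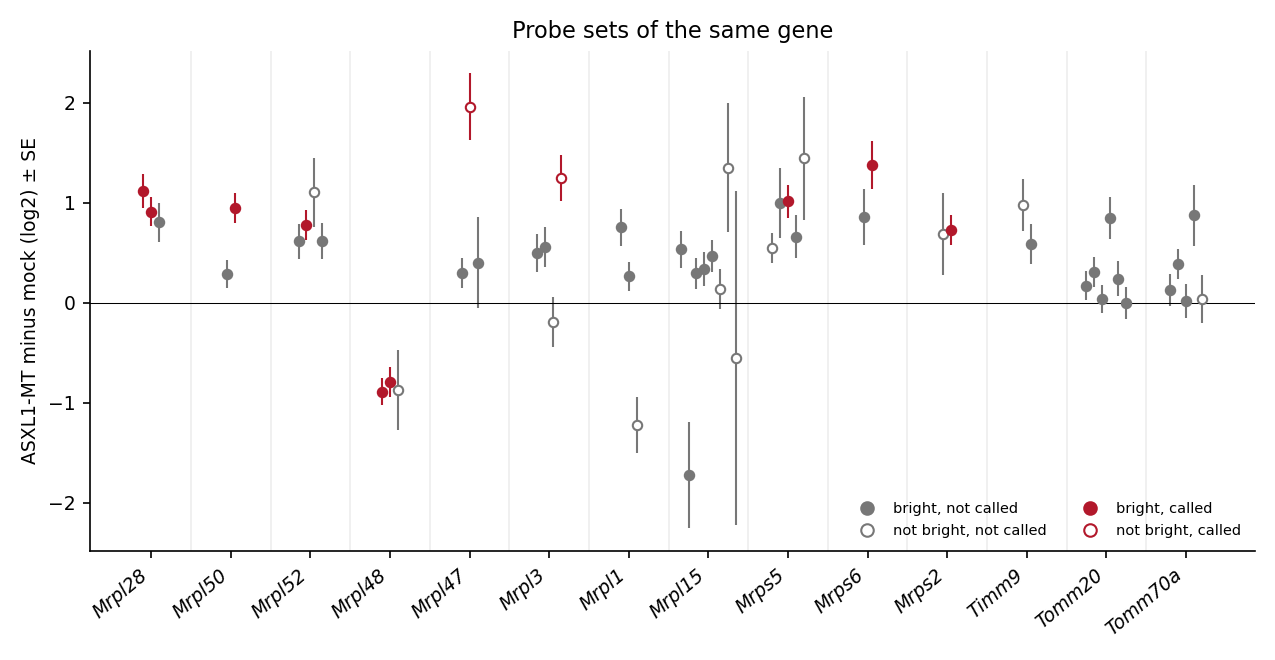
Difference between groups (ASXL1-MT minus mock, log2, bar = SE of limma's fit) of every probe set of 14 member genes, filled where bright and red where called. The probe sets of Mrpl28, Mrpl52, Mrps5 and Mrpl48 share a sign within each gene, those of Mrpl1, Mrpl3 and Mrpl15 do not, and the called probe set of Mrpl47 stands far above its 2 bright neighbours.

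The small subunit was the most one-sided group. Of its 52 probe sets, from 29 genes, 47 had a positive difference (90.4%), the median was 0.32, and 3 were called higher and 0 lower (5.77%, against 8.1% of all). At an unadjusted p under 0.05 there were 17 higher and 0 lower, 32.7% against 26.3% of all (16.1% higher and 10.2% lower). Among the 40 bright probe sets fitted alone, limma called 14 higher and 0 lower, 35.0% against 39.4% of all bright probe sets. The 3 called were Mrps6, Mrps5 and Mrps2, all with bacterial counterparts.

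Mrps6 had the largest called difference of the small subunit. On 1447585_s_at the ASXL1-MT arrays read 0.46, 0.69 and 0.84 and the mock arrays -1.13, -0.56 and -0.46, a 2.6-fold increase (1.38 ± 0.24, adjusted p = 0.0355). Its other probe set, 1424440_at, differed by 0.86 (adjusted p = 0.13). Mrps5 was read by 5 probe sets, all positive and none overlapping between groups. The called one, 1448488_at, read 0.42, 0.39 and 0.53 against -0.75, -0.55 and -0.39, a 2.02-fold increase (1.02 ± 0.16, adjusted p = 0.0303), and the other 4 differed by 0.55 to 1.45. Mrps2 read 0.34, 0.26 and 0.38 against -0.43, -0.52 and -0.26 on 1420846_at, a 1.66-fold increase (adjusted p = 0.0476).

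Several further small subunit genes lay near the threshold. Mrps36 read 0.39, 0.25 and 0.37 against -0.28, -0.25 and -0.28, a difference of 0.61 ± 0.13 (adjusted p = 0.0573). This gene is named for the ribosome, but its product is now known as part of the alpha-ketoglutarate dehydrogenase complex. Mrps22 and Mrps27, additions found in mitochondria, differed by 0.59 ± 0.15 and 0.66 ± 0.17 (adjusted p = 0.0794 and 0.0846), with no overlap between groups. The largest difference of any member, 2.49 ± 0.76 on 1430100_at of Mrps15, was not called in the fit of all probe sets (adjusted p = 0.115) and was called higher among bright probe sets alone (adjusted p = 0.0396). Its mock arrays ranged from -2.85 to -0.15, and the other 2 probe sets of Mrps15 differed by -0.03 and 0.11. The brightness of 1430100_at was read from its ASXL1-MT arrays alone.

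The promoters of Mrps5 and Mrps22 are shown as those of the small subunit gene with the most agreeing probe sets and of a gene near the threshold that holds an ETS match. Mrps5 lies on the plus strand at chr2:127587176-127587425 with no match. Mrps22 lies on the minus strand at chr9:98601680-98601929, with CCGGAAG beginning 11 bases before the start.
Mrps5: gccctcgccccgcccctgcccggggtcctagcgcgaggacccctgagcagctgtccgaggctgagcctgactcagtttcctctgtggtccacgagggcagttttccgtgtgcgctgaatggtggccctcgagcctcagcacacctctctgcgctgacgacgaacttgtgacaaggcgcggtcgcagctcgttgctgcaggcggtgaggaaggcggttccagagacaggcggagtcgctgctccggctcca
Mrps22: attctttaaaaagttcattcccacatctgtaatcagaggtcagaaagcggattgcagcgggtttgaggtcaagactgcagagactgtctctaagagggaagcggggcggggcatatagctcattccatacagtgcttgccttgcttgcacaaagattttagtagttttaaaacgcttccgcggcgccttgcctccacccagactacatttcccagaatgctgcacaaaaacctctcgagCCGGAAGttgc

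The import machinery gave no called probe set in the fit of all probe sets. Among bright probe sets fitted alone, limma called 3 higher and 1 lower of 18 for the outer membrane translocase (22.2%), 3 higher and 0 lower of 9 for the presequence translocase (33.3%) and 1 higher and 0 lower of 12 for the carrier translocase and small Tims (8.33%), against 39.4% of all bright probe sets. The 7 higher were 1 probe set each of Tomm20, Timm21 and Timm9 and 2 each of Tomm70a and Timm44, and the lower one was of Tomm22. For the outer membrane translocase, 0 of 22 probe sets of 8 genes were called by limma, with 3 higher and 2 lower at an unadjusted p under 0.05. The median was 0.10 and 15 were positive, and under quantile scaling and cyclic loess the median was 0.00 and -0.02. Tomm20, a receptor for presequences, had 6 probe sets, of which 5 were positive. The largest, 1435187_at, read 0.83, 0.24 and 0.35 against -0.39, -0.49 and -0.24 (adjusted p = 0.0734, and 0.0143 among bright probe sets alone), and the other 5 differed by 0.31 or less. Tomm70a, a receptor for carriers, differed by 0.88 on 1434243_s_at (adjusted p = 0.145, and 0.0478 among bright probe sets alone), where ASXL1-MT replicate 1 and mock replicate 3 met near 0, and by 0.02 to 0.39 on its other 4 probe sets. The channel Tomm40 differed by 0.25 ± 0.16 (adjusted p = 0.391).

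Tomm22, the central receptor that ties the complex together, lay on the other side of 0. Its probe set 1429103_at read -0.25, -0.19 and -0.10 on the ASXL1-MT arrays and 0.10, 0.25 and 0.25 on the mock arrays, a difference of -0.38 ± 0.14 that was not called in the fit of all probe sets (adjusted p = 0.17) and was called lower among bright probe sets alone (adjusted p = 0.0256). The second, 1434420_x_at, differed by -0.18 ± 0.16. Neither overlapped between groups. Tomm20l, a paralogue of Tomm20 read by a dim probe set, differed by -0.79 ± 0.28 (adjusted p = 0.149).

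At the inner membrane, limma called 0 of the 11 probe sets of the presequence translocase and 0 of the 16 of the carrier translocase and small Tims. Unadjusted p-values under 0.05 were found for 1 and 2 of these, all higher (9.09% and 12.5%, against 26.3% of all probe sets). The medians were 0.29 and 0.12, with 8 and 13 positive (72.7% and 81.2%, against 55.9% of all probe sets). Above the array's own median lay 6 of the 11 (54.5%) and 8 of the 16 (50.0%). Timm21, which links the outer and inner membrane complexes, came nearest to the threshold, with 0.26, 0.26 and 0.41 against -0.52, -0.59 and -0.26 and a difference of 0.76 ± 0.16 (adjusted p = 0.0526, and 0.00639 among bright probe sets alone). Timm44, the tether of the import motor, had 3 probe sets at 0.33 to 0.39, none overlapping between groups and none called in the fit of all probe sets, of which 2 were called higher among bright probe sets alone (adjusted p = 0.0405 and 0.0442). The channel proteins differed in sign. Timm23 read 0.02, -0.01 and 0.01 against -0.01, -0.01 and 0.11, a difference of -0.03 ± 0.13, with overlapping groups. Timm17a differed by 0.29 ± 0.18 with no overlap (adjusted p = 0.366), and the 2 probe sets of Timm17b by -0.12 and -0.16.

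Among the small Tims, Timm9 and its partner Timm10 were both positive. Timm9 read 0.65, 0.26 and 0.32 against -1.02, -0.44 and -0.26 on the dim 1428010_at (0.98 ± 0.26, adjusted p = 0.0837), and its bright probe set differed by 0.59 ± 0.20 (adjusted p = 0.142, and 0.036 among bright probe sets alone). Timm10 differed by 0.33 ± 0.15 (adjusted p = 0.247), and the test of Timm9 against Timm10 was not run. Timm22, the carrier channel, differed by 0.08 and 0.17 and Timm29, its partner, by -0.01 and -0.04. Timmdc1, a complex I assembly factor counted here by its name, read -0.83, 0.50 and -0.26 against 0.10, -0.10 and 0.14, with overlapping groups (adjusted p = 0.729).

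The promoters of Timm9 and Tomm22 are shown as those of translocase genes on opposite sides of 0. Timm9 lies on the minus strand at chr12:71136676-71136925, with an E-box beginning 58 bases before the start. Tomm22 lies on the plus strand at chr15:79670618-79670867, where CCGGAAG on both strands overlaps in a single run of capitals that begins 47 bases before the start.
Timm9: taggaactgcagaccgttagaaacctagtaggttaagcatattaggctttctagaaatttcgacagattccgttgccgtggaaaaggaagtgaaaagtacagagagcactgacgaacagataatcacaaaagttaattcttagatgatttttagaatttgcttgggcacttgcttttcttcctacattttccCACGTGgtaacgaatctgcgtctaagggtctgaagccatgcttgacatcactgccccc
Tomm22: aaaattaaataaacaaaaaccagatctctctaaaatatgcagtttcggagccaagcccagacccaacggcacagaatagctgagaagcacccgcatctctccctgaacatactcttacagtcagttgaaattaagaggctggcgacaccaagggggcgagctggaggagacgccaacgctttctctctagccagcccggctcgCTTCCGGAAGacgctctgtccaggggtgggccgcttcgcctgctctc

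Motif letters were counted on both strands in 300 bases, from 250 before to 50 after the start, for the 88 member genes found in the RefSeq table. CCGGAAG stood in 35 (39.8%), against 9.93% of all 27025 genes of the table and 15.0% of the 14368 found on the array. CACGTG stood in 10 (11.4%), close to the 10.3% of the genes on the array (8.09% of the table). The NRF1 motif stood in 3 (3.41%, against 1.75% of the genes on the array and 1.07% of the table) and the YY1 motif in 6 (6.82%, against 1.64% and 0.995%). Any of the 4 stood in 49 members (55.7%, against 25.7% and 18.2%). The 35 members with the ETS letters had a median difference of 0.16 with 23 positive, and the 53 without them 0.27 with 43 positive. These medians were not tested against each other, and the differences ranged from -0.85 to 0.88 with the letters and from -0.79 to 1.12 without them. A match is a description of letters and not a bound site.

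Averaged over the probe sets of each gene, 8 of 100 member genes were called higher and 0 lower, 8.0% against 11.4% of all genes (6.63% higher and 4.75% lower). At an unadjusted p under 0.05 there were 30 higher and 2 lower, 32.0% against 29.1% of all genes. The 8 were Mrps6 (1.12), Mrpl28 (0.95), Mrps5 (0.93), Mrpl37 (0.90), Mrpl52 (0.78), Timm21 (0.76), Mrpl50 (0.62) and Mrps36 (0.61), in log2 difference. Timm21 was the only translocase gene among them. Mrpl48 averaged -0.85 with an adjusted p of 0.052. Of the 55 genes with 2 or more probe sets, all were positive in 32, all negative in 5 and of mixed sign in 18.

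The calls were close to the threshold. All 12 adjusted p-values lay between 0.0261 and 0.0476, and leaving out any of the 6 arrays in turn left 0 of the 206 called, except that Mrpl47 1443915_at kept its call without mock replicate 1 (adjusted p = 0.0497). Each of the other 11 calls ended in all of these 6 fits, though calls over the whole array fell too, from 3646 to between 66 and 1142. At the gene level, between 0 and 3 member genes were called with an array left out, among them Mrpl28, Mrpl37 and Mrps5. When arrays were set to equal medians, quantile normalized or scaled by cyclic loess, Mrpl52 and Mrps2 lost their probe set calls and the other 10 were called in each, while the share of higher probe sets among all calls went from 58.4% to 49.9%, 47.9% and 46.2%.

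Genes that work with the members had differences in the same range. Of 31 measured mitochondrial translation and assembly factors, 56 probe sets gave 46 positive differences and a median of 0.41, above the members' 0.24. Of these 56, limma called 0 higher and 1 lower (1.79%, against 8.1% of all). Before adjustment, limma's p fell below 0.05 for 19 with a positive and 3 with a negative difference (39.3%, against 26.3% of all). Among the 34 bright ones fitted alone, 14 were called higher and 1 lower (44.1%, against 39.4% of all bright probe sets). Averaged by gene, 3 were called higher and 1 lower (12.9%, against 11.4% of all genes). These were the translation factors Guf1 (1.03) and Mtif2 (0.57) and the GTPase Mtg2 (0.99), all higher, and Tsfm (-1.12). Guf1 rests on dim probe sets only. The only bright probe set of Mtg2 differed by 0.27 and was not called, and its dim ones ranged from -0.06 to 2.32. The lower probe set, 1432170_at of Tsfm, an elongation factor, differed by -2.69 ± 0.22 (adjusted p = 0.0125), but it is dim, and the gene's bright probe set 1452698_at differed by 0.44. Of 20 import partners, 43 probe sets gave 33 positive, a median of 0.37, 4 called higher and 0 lower (14 and 0 at an unadjusted p under 0.05). That is 9.3%, near the 8.1% of all probe sets, and among the 31 bright ones fitted alone 12 were called higher and 0 lower (38.7%, against 39.4%). The 4 were 2 probe sets of Mtx3, an outer membrane metaxin, at 1.07 and 0.96, Hspa9, the import motor chaperone, at 0.90 (adjusted p = 0.0498), and Chchd4, the oxidoreductase of the intermembrane space, at 0.86 (adjusted p = 0.0471). Another 4 probe sets of Hspa9 were not called and ranged from -0.82 to 0.44.

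Subunits of the respiratory chain and of the cytosolic ribosome had medians closer to that of the array. Respiratory chain and ATP synthase subunits had a median of 0.08 over 164 probe sets, with 101 positive. Of these 164, limma called 0 higher and 2 lower (1.22%, against 8.1% of all). Before adjustment, limma's p fell below 0.05 for 5 with a positive and 4 with a negative difference (5.49%, against 26.3% of all). Cytosolic ribosomal proteins had a median of 0.15 over 116 probe sets, with 88 positive, 3 called higher and 2 lower (4.31%). Within the ribosome of mitochondria, proteins with a bacterial counterpart (98 probe sets, median 0.29, 7 higher and 0 lower called) and those without (54 probe sets, median 0.28, 3 higher and 2 lower called) had nearly equal medians. That split was drawn up after the values were seen. No test was run of the difference between any of these groups.

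**Figure D5:**
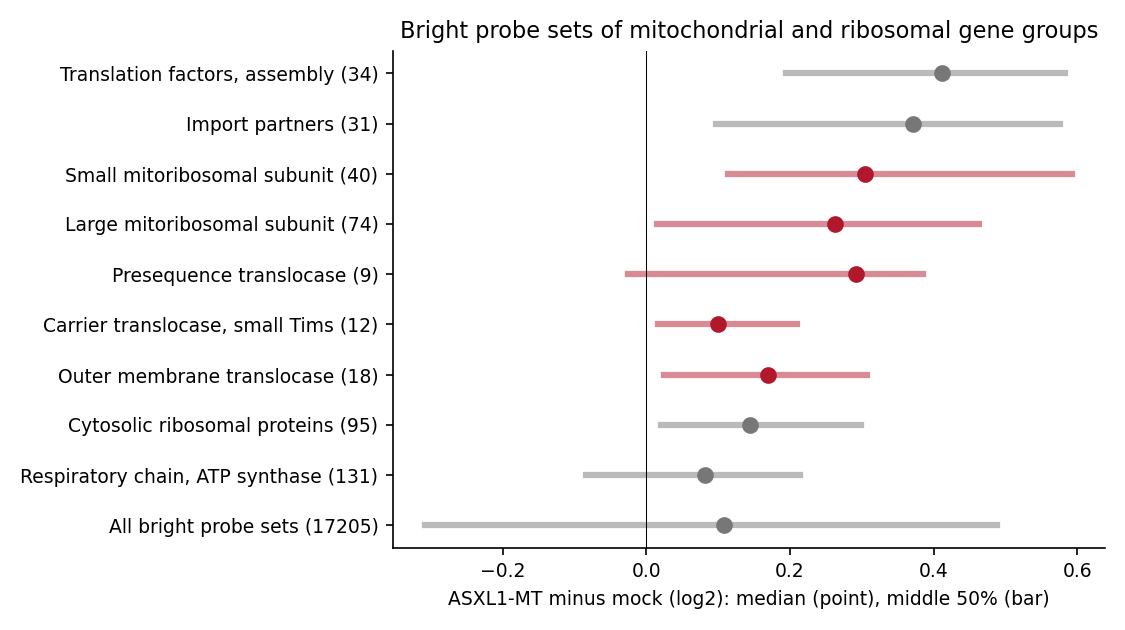
Median difference (point) and middle 50% (bar) of the bright probe sets of mitochondrial and ribosomal gene groups (ASXL1-MT minus mock, log2), with the number of probe sets in brackets and members in red. Translation factors (0.41) and import partners (0.37) lie to the right of the ribosomal subunits (0.30 and 0.26), and the respiratory chain (0.08) lies near all bright probe sets (0.11), whose bar is the widest.

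Several markers of cell types differed by more than these groups. Median differences over genes were -1.59 for mature neutrophil, -2.31 for megakaryocyte, 2.77 for dendritic, 1.14 for erythroid and 0.82 for stem and progenitor genes. They were -0.47 for B cell, 0.37 for T and NK cell and 0.19 for dividing cell genes, against 0.48 for the translation factors. Mature neutrophil genes were lower, 7 of 8 measured of 10 listed, with a mean over genes of -1.41 to -0.99 on the ASXL1-MT arrays and 0.84 to 0.93 on the mock arrays. Of their 12 probe sets, 1 went the other way, at 1.15 with no overlap between groups, and was not called. Stem and progenitor genes had 4 of 8 called higher and 1 lower, with means of 0.36 to 0.62 against -0.85 to -0.48, and all 6 dendritic genes were higher (1.12 to 1.33 against -2.46 to -1.27). The dendritic genes were Siglech, Cd74, H2-Aa, H2-Ab1, Ciita and Flt3. Flt3 is also in the stem and progenitor list, so these lists are not independent. Megakaryocyte genes had 3 of 5 lower (-1.44 to -0.50 against 0.22 to 1.35), erythroid genes 1 of 6 higher (0.22 to 1.61 against -1.22 to -0.22), T and NK cell genes 2 of 6 higher (-0.37 to 0.57 against -1.02 to 0.37) and B cell genes 1 of 5 higher (-0.27 to -0.13 against -0.18 to 0.77). Genes of dividing cells had 1 of 7 higher (0.05 to 0.14 against -0.24 to 0.06), and, as with the members, mock replicate 3 was the highest mock array.

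Centring removed the levels, so which of these markers are at or near 0 cannot be read. Bright probe sets were 11 of 12 for neutrophil genes and 2 of 7 for B cell, 2 of 11 for T and NK cell and 3 of 10 for erythroid genes, the lineages named for removal. Megakaryocyte genes, not named for removal, had a low share too, with 2 of 6. Dendritic genes had 9 of 13, stem and progenitor genes 11 of 18 and dividing cell genes 12 of 14. The part of these cell types in the members' differences was not tested. In bulk samples, fewer cells of a type and less RNA per cell cannot be told apart.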

How the data were processed

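Total RNA of 6 samples, 3 per group, was read on Affymetrix arrays, and groups were taken from the sample titles. Signals were made with MAS5, per the submitters' processing notes. The deposited values are log values, taken here as log2. The log base, the centring and any floor are stated nowhere in the sources used here and were read from the values: medians over the 6 arrays were 0 to within 5e-07, and tied values occurred in 425 probe sets, in all 425 at the lowest value, so higher was read as brighter. No member had tied values. Brightness came from rounding on 20 binary places, which for base 2 holds for all values at log2 8 and above. Part of the values below log2 8 also fall on that step, so some probe sets termed bright may be dimmer.

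Symbols came from the platform annotation (1 symbol for 34945 probe sets, several for 932, none for 9160), and all 206 members matched RefSeq GRCm38.p6 by gene ID. Promoters are RefSeq's of that build. Groups were compared in R 4.3.3 with limma 3.58.1 (lmFit, eBayes), with group as the only term and no intensity trend, with Benjamini-Hochberg adjustment over all 45037 probe sets or 18193 genes (the mean of a gene's probe sets) and a threshold of 0.05. The steps were tested on simulated data. The number of arrays limits the precision.

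Members and lists were chosen with earlier results of these data known. Named were, per role, up to 4 called probe sets with the largest difference in each direction or the 2 with the smallest p, the 2 nearest to the threshold on either side, every lower call, called genes with probe sets of opposite sign, and the 3 largest called per direction among the partner genes. All other genes were named after their values were seen. Alternatives were 3 scalings, an intensity trend with and without robust fitting, bright probe sets alone, no probe sets with the suffix x, s or a, a replicate block, 2 other gene values, and each array left out. Nothing was left out of the comparison.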

Additional observations from a re-analysis of the deposited data

How the results depend on the processing

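The fit of all probe sets called 10 members higher and 2 lower, and 8 genes higher and 0 lower. With an intensity trend and robust fitting 18 probe sets and 14 genes were higher, among 5816 calls on the whole array in place of 3646. With bright probe sets alone 40 were higher and 4 lower (28.6%, against 39.4% of all bright probe sets). Of the 97 member genes with a bright probe set, 30 were higher and 1 lower (Mrpl48), 32.0% against 43.8% of all such genes. Without probe sets of the suffix x, s or a, 4 were higher and 1 lower (3.88%, against 5.36% of all), among 1935 calls in all. There 2 genes were higher and 0 lower (2.44%, against 8.91% of all genes). With equal array medians, quantile normalization and cyclic loess 3 genes were higher and 1 lower (Mrpl48) in each. That is 4.0%, against 11.1%, 11.2% and 11.1% of all genes. The members' median of 0.24 went to 0.16, 0.14 and 0.13 while that of all probe sets went from 0.11 to 0.02, 0.02 and 0.00. The members' median minus that of all probe sets stayed between 0.13 and 0.14. Mrpl48 was also lower (1 gene) with genes taken as the median of their probe sets or as their least variable probe set. The counts of higher genes with these were 10 and 12. The causes were not tested. Fewer probe sets were adjusted for in the bright and suffix settings, and the fitted SE changed too. For Mrpl28 1416284_at the SE was 0.17 in the fit of all probe sets. It was 0.13 with bright probe sets alone and 0.18 without probe sets of those suffixes.

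With each array left out, the members called higher ranged from 0 to 1 and lower from 0 to 0, and genes higher from 0 to 3. Without ASXL1-MT replicate 1, Timmdc1 1420329_at turned to 0.076 (range -0.59 to 0.076 over the arrays left out), and without ASXL1-MT replicate 2, Mrpl3 1431006_at turned to 0.0333 (range -0.38 to 0.0333). Neither was called in any fit.

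The groups share replicate numbers, but same-numbered samples did not deviate together (correlations of -0.01 in each of the 3 pairs). With the replicate number as a block, 0 members, 0 of 45037 probe sets and 0 of 18193 genes were called, with 35 members and 9874 probe sets at an unadjusted p under 0.05. Signal over background limits dim probe sets, which are 52 of the 206 members, and levels cannot be compared between genes.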
